A study of Mus musculus with 6 samples.

Results

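The hyperpolarization-activated, cyclic nucleotide-gated channel genes Hcn2, Hcn3 and Hcn4 were examined in the cardiac ventricles of mice with a miR-499 transgene and of their wild-type littermates, all at postnatal day 17. These are 3 of the 19938 genes that had a probe set with a single gene symbol on the array. The probe set of a gene was to be chosen by its mean log2 value over the 6 arrays, the highest being taken, but each of the 3 genes had 1 (probe set 10364478 for Hcn2, 10499493 for Hcn3 and 10585851 for Hcn4), so the rule left nothing to choose. The genes were grouped when earlier results of the same arrays were known, among them that Hcn2 was lower in the transgenics, so the values of Hcn2 are a description and not independent support.

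The TG group was 3 mice of the line TG-17, which carries a mouse genomic fragment with miR-499 behind the promoter of Myh6, a myosin gene active in heart muscle cells. The line was made by injection of FVB/NCrl embryos, and it was described as expressing less miR-499 than another line with the same transgene. The WT group was 3 littermates. Total RNA of the ventricles of each mouse was hybridised to 1 Affymetrix mouse gene ST array. Values are log2 RMA values, that is, background-corrected, quantile-normalized probe summaries on a log2 scale, and a difference of 1 is a 2-fold change. A gene was called changed where limma's log odds of differential expression, B, was above 0. Adjusted p values are those of limma after Benjamini-Hochberg adjustment over all 35556 probe sets.

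Hcn genes encode channels that open when the membrane becomes more negative and pass the inward pacemaker current, called the funny current in the heart. Binding of cAMP to the intracellular domain makes Hcn2 and Hcn4 channels open more readily, which is part of how sympathetic input speeds the heart. Hcn4 is the main isoform of the sinoatrial node, where the heartbeat starts. Hcn2 is found in ventricular muscle as well as in the node and in the brain, and Hcn3 is found at lower abundance in the mouse ventricle. The comparison asks whether a raised level of miR-499 went with a different level of these isoforms in working ventricle, which does not normally beat on its own.

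The RNA raised by the transgene is shown for reference, with the seed (bases 2 to 8, the stretch by which a microRNA pairs with its targets) in capitals. Both arms of the hairpin are from RefSeq, GRCm38.p6, plus strand, at chr2:155622893-155622913 for the 5p arm and chr2:155622929-155622951 for the 3p arm.
mmu-miR-499-5p: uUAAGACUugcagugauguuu
mmu-miR-499-3p: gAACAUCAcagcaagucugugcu
The whole seed of the 5p arm was found in 1 of the 1738 mature mouse microRNAs of the table, which is miR-499-5p itself. MicroRNAs that share only part of bases 2 to 8 were not counted. Transcript sequences of the Hcn genes were not used here, so sites for this seed were not searched.

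The probe set of Mir499 had log2 values of 9.31, 9.33 and 8.87 in TG mice 1, 2 and 3, against 5.48, 5.34 and 5.68 in WT mice 1, 2 and 3. The transgene was thus seen in each labelled TG mouse, with a 12.7-fold higher level (log2 difference 3.67, standard error 0.15, adjusted p = 0.00772 from limma). The host gene Myh7b had a log2 difference of 0.22 (standard error 0.083, limma adjusted p = 0.299) and was not called. Array medians were 6.89 to 6.91 in TG and 6.93 to 6.95 in WT, and Pearson's r across probe sets was 0.992 to 0.994 within TG, 0.992 to 0.993 within WT and 0.990 to 0.992 between them. The 8 ventricular muscle markers, which include Myh6, Myl2 and Tnnt2, averaged 13.13 to 13.15 per array in TG and 13.11 to 13.14 in WT. This fits heart muscle, but the average does not tell ventricle from atrium.

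Hcn2 was the isoform with the largest difference between the groups. Its log2 value was 8.34, 8.52 and 8.47 in TG mice 1, 2 and 3, against 8.79, 8.94 and 8.83 in WT mice 1, 2 and 3. Every TG mouse lay below every WT mouse, and the highest TG value was 0.27 under the lowest WT value. The mean was 8.44 ± 0.093 in TG and 8.85 ± 0.077 in WT (SD, n = 3 each). The log2 difference was -0.41 (standard error 0.072, 95% interval -0.59 to -0.24), which is a level 1.33-fold lower in TG with an interval of 1.18 to 1.5. The difference between the groups was larger than the spread between mice of either genotype.

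In the fit across the whole array Hcn2 had a B of -0.30, with an unadjusted p of 0.00110 and an adjusted p = 0.220 from limma, and was not called. It was called in 4 of 15 alternative settings, with B of up to 1.09. Those settings called more of the array, with 191 of 17778, 156 of 23410, 287 of 35556 and 714 of 35556 probe sets. The main fit called 130 of 35556. The B of 1.09 came from a higher assumed share of changed probe sets, 0.05, with the same unadjusted p. An exact two-sided permutation test over the 6 mice gave p = 0.10, the smallest value that 3 against 3 mice allow. Of the 19938 genes, 79 (0.396%) had a log2 difference as low as that of Hcn2 or lower, and in 65 of these the groups did not overlap. Genes picked for a low difference are more likely to separate the groups. Of all 19938 genes, 13.6% had TG below WT without overlap. In bulk ventricle, fewer cells that express Hcn2 and less Hcn2 RNA per cell cannot be told apart.

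**Figure D1:**
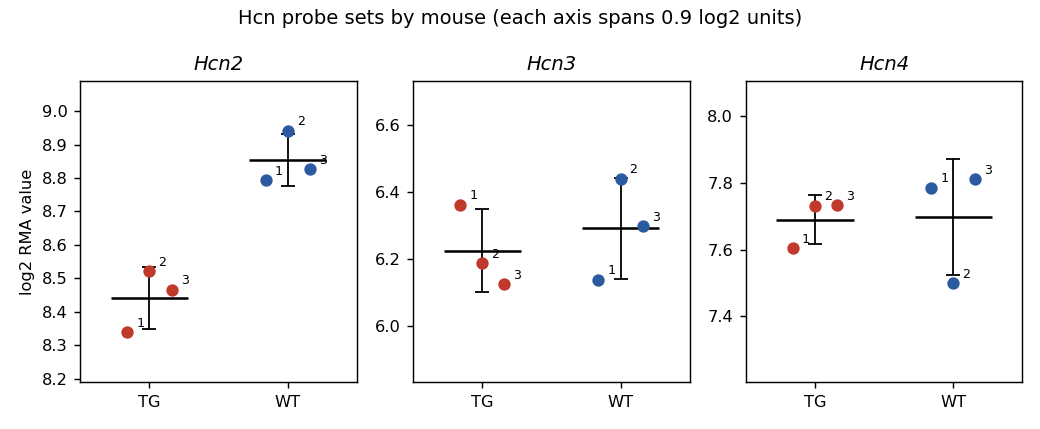
Log2 RMA values of Hcn2, Hcn3 and Hcn4 in the ventricles of 3 TG (red) and 3 WT (blue) mice. Numbered points are single mice, with the mean of each group as a bar and its SD as whiskers. The TG points of Hcn2 lie below its WT points by at least 0.27, and the points of Hcn3 and Hcn4 overlap between the groups.

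Hcn3, whose channel opens slowly and has been tied to the repolarization of ventricular muscle in mice, did not separate the groups. Its log2 value was 6.36, 6.19 and 6.12 in TG mice 1, 2 and 3, against 6.14, 6.44 and 6.30 in WT mice 1, 2 and 3. The lowest value of the 6 was in a TG mouse and the highest in a WT mouse, but the ranges overlapped over most of their length. The mean was 6.22 ± 0.12 in TG and 6.29 ± 0.15 in WT (SD, n = 3 each). The log2 difference was -0.067 (standard error 0.10, limma adjusted p = 0.770). Its 95% interval of -0.31 to 0.18 runs as far as a level of 0.805 of that in WT, so the 2 groups were not shown to be alike. The probe set was dim, with a mean of 6.26 over the 6 arrays against a median of 6.91 over all probe sets.

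Hcn4, the sinoatrial isoform, was at nearly the same mean in both groups. Its log2 value was 7.60, 7.73 and 7.73 in TG mice 1, 2 and 3, against 7.78, 7.50 and 7.81 in WT mice 1, 2 and 3. All TG values lay inside the range of the WT values, which WT mouse 2 widened downwards. The mean was 7.69 ± 0.074 in TG and 7.70 ± 0.17 in WT (SD, n = 3 each). The log2 difference was -0.0080 (standard error 0.098, limma adjusted p = 0.975), with a 95% interval of -0.25 to 0.23. A level between 0.843 and 1.17 of that in WT was therefore within the error of this comparison. The sign of the Hcn4 difference turned when arrays were centred on their medians or when single mice were left out.

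Of the 3 genes, none was called at B above 0, where 0.366% of all probe sets were called, and none had an adjusted p under 0.05, where 0.00562% did. Of all probe sets 0.211% were called lower in TG. With limma's p unadjusted and under 0.05, 1 of the 3 was lower in TG (Hcn2) and none higher, beside 8.5% of all probe sets lower and 6.97% higher. Groups without overlap, with TG below WT, were found for the same 1 of 3, beside 12.1% of all probe sets. With so few genes these counts do not set the family apart from the rest of the array.

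**Figure D2:**
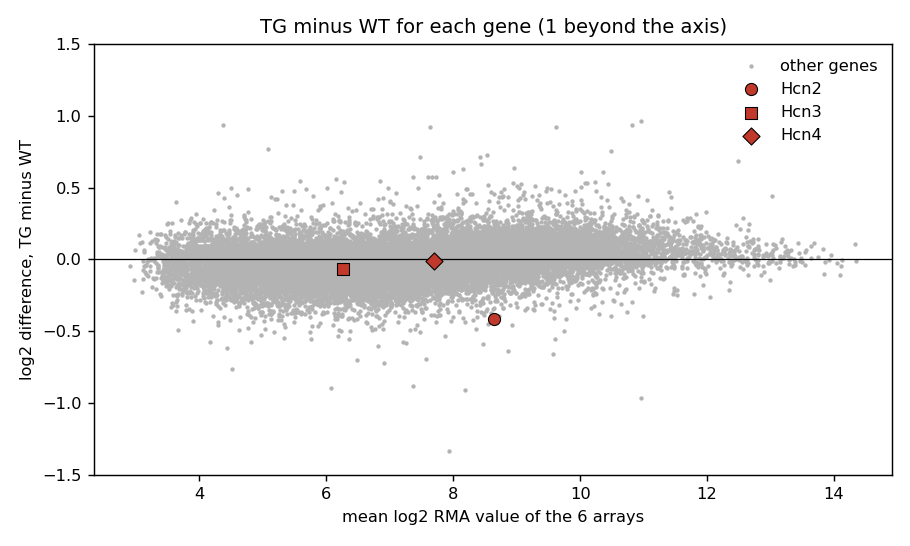
Log2 difference of TG minus WT (vertical axis) against the mean log2 RMA value of the 6 arrays (horizontal axis) for 19938 genes in grey, with Hcn2 (circle), Hcn3 (square) and Hcn4 (diamond) in red. Hcn2, at -0.41, lies at the lower edge of the genes of its brightness, while Hcn3 and Hcn4 lie near 0, and 1 gene, Mir499, is beyond the axis.

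Since the isoforms were measured on the same arrays, their differences within each array were compared between the groups, which removes any shift of a whole array. The level of different probe sets cannot be ranked, because each depends on its own probes, so only the change of these differences with genotype was read. Hcn2 minus Hcn4 was 0.73, 0.79 and 0.73 in TG mice 1, 2 and 3, against 1.01, 1.44 and 1.02 in WT mice 1, 2 and 3. The groups did not overlap, and Hcn2 was lower relative to Hcn4 by a mean of 0.40 on the log2 scale in TG. Hcn2 minus Hcn3 was 1.98, 2.33 and 2.34 in the TG mice, against 2.66, 2.50 and 2.53 in the WT mice. Here too every TG mouse lay below every WT mouse, with a mean change of -0.34. Hcn3 minus Hcn4 was -1.24, -1.54 and -1.61 in the TG mice, against -1.65, -1.06 and -1.51 in the WT mice, and the groups overlapped. Over the 3 pairs the exact two-sided permutation p was 0.10 for both pairs with Hcn2, the smallest possible, and 0.80 for Hcn3 against Hcn4 (0.15, 0.15 and 0.80 after Benjamini-Hochberg adjustment). The design is thus too small to show at p of 0.05 that Hcn2 changed differently from the other isoforms. Both pairs with Hcn2 also share its values, which were known to be lower in TG when the genes were grouped. They are therefore a description, and neither pair is independent support for the other.

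**Figure D3:**
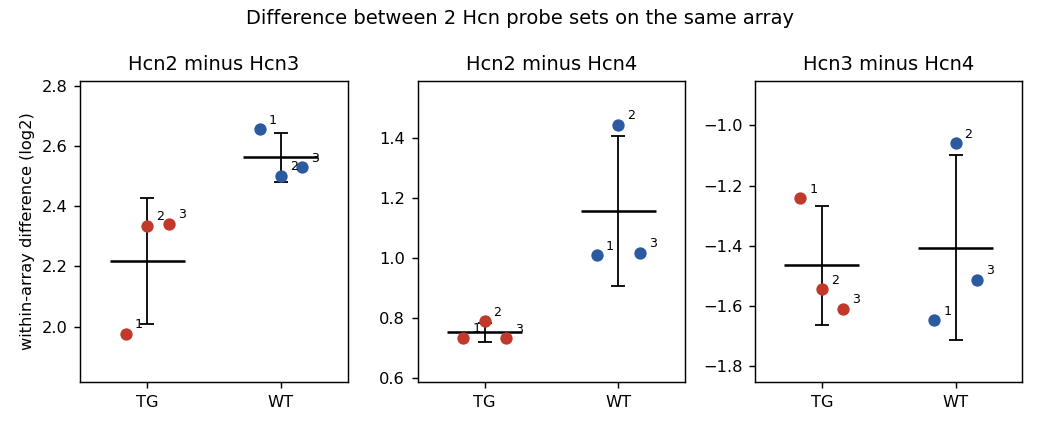
Differences between the log2 RMA values of 2 Hcn probe sets on the same array (vertical axis) in 3 TG (red) and 3 WT (blue) mice, with the mouse number beside each point, the mean as a bar and 1 SD as whiskers. TG mice lie below WT mice in both panels with Hcn2, and the groups overlap for Hcn3 minus Hcn4, where TG mouse 1 and WT mouse 2 are the highest of their groups.

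Within a genotype the order of the mice differed between isoforms. WT mouse 2 had the highest WT value of Hcn2 and of Hcn3 and the lowest of Hcn4. TG mouse 1 had the lowest TG value of Hcn2 and of Hcn4 and the highest of Hcn3. In both groups the mouse with the highest Hcn3 was thus the mouse with the lowest Hcn4, while its Hcn2 was at opposite ends. With 1 mouse left out in turn, the log2 difference of Hcn2 ran from -0.45 to -0.36, and it was at its smallest without TG mouse 1. That of Hcn3 ran from -0.14 to 0.0068 and turned positive without WT mouse 2. That of Hcn4 ran from -0.11, without WT mouse 2, to 0.048, without WT mouse 3, and it was also positive without TG mouse 1 or WT mouse 1.

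**Figure D4:**
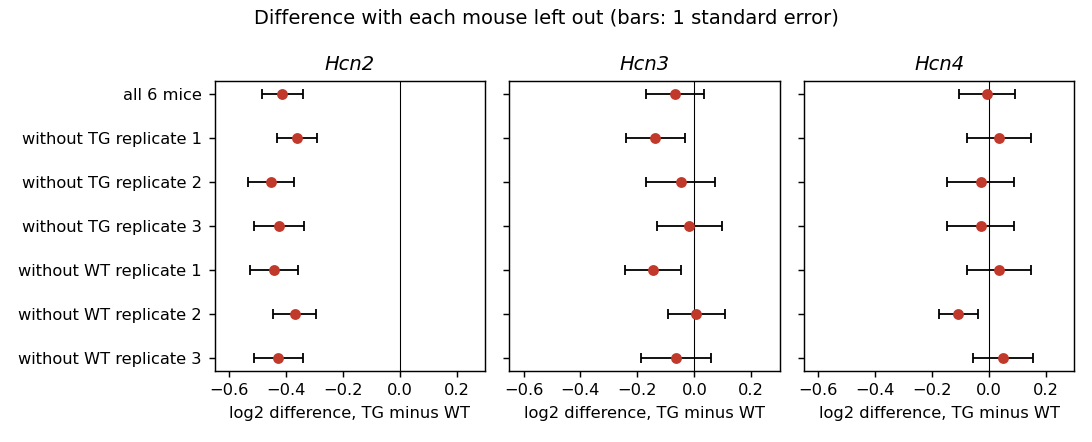
Log2 difference of TG minus WT of Hcn2, Hcn3 and Hcn4 (horizontal axis) with all 6 mice and with each mouse left out in turn (rows), with bars of 1 standard error from limma. Hcn2 stays between -0.45 and -0.36, whereas Hcn3 and Hcn4 lie on both sides of 0.

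The start regions of the genes were compared in RefSeq windows of 250 bases before to 50 bases after the transcription start (GRCm38.p6), for Hcn2 and Hcn4. That of Hcn3 was not analysed here. Both windows were rich in G and C, at 72.3% for Hcn2 and 71.7% for Hcn4, beside a median of 52.7% over 32851 windows. A GC box (GGGCGG on either strand), the letters bound by the Sp1 family, was found 3 times at Hcn2 and 2 times at Hcn4, and 35.7% of all windows hold it. Neither window held a TATA box (TATAAA on either strand), which 13.6% of all windows hold. A stretch of 30 bases is shown for each gene because a GC box is what these start regions share, with 2 of the 3 boxes of Hcn2 and 1 of the 2 of Hcn4 in capitals (here on the minus strand), at chr10:79716545-79716574 for Hcn2 and chr9:58822741-58822770 for Hcn4, both plus strand.
Hcn2: gcggggctcCCGCCCCCGCCCctcccccgc
Hcn4: tctggcgaggttCCGCCCtgcgcccctcgc
The letters are a description of the windows and were not tested against the TG and WT values. Sp1 itself had a log2 difference of -0.056 (standard error 0.071, limma adjusted p = 0.728) and was not called.

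The genes next to the Hcn genes on the chromosome were read in the same fit, since they share the region but not the function. Polrmt, the mitochondrial RNA polymerase gene, follows Hcn2 and had log2 values of 8.84, 8.97 and 8.99 in the TG mice, against 9.05, 9.13 and 9.13 in the WT mice. Its TG values all lay below its WT values, with a mean difference of -0.17 (standard error 0.061, limma adjusted p = 0.291), and it was not called. Bsg, which precedes Hcn2 and encodes the membrane protein basigin, had a log2 difference of -0.036 (standard error 0.049). Pklr and Fam189b, the nearest measured genes around Hcn3, had log2 differences of -0.090 (standard error 0.057) and -0.21 (standard error 0.059), and the TG values of Fam189b lay below its WT values. Rec114 and Neo1, around Hcn4, had log2 differences of -0.067 (standard error 0.057) and 0.016 (standard error 0.063), and none of these neighbours was called.

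The genes whose values followed those of each isoform most closely over the 6 arrays were found by Pearson's r over 19935 genes. For Hcn2 they were Vmn1r185, Bspry, Gm4861, Noc4l and Sap18, with r of 0.994, 0.994, 0.993, 0.992 and 0.992, and their log2 differences of -0.23 to -0.078, in the direction of Hcn2, follow from that choice. Hcn2 had 139 genes (0.697%) at an r of 0.95 or above. For Hcn3, whose groups overlapped, the closest were Mastl, 4930432E11Rik, Hp, A630001G21Rik and Arfgap1 (r of 0.992, 0.990, 0.987, 0.985 and 0.982), and 39 genes reached 0.95. For Hcn4 they were Dip2b, Macf1, Fank1, Trp53rka and Gm5478 (r of 0.988, 0.984, 0.981, 0.977 and 0.975), and 23 genes reached 0.95. These values are descriptions over 6 arrays that share their processing. Several of the genes had dim probe sets, among them Vmn1r185 (mean 4.01 in TG and 4.24 in WT).

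No measured relative or partner of the channels was called. Of 14 listed genes of cyclic nucleotide-gated and ether-a-go-go channels, which share the cyclic nucleotide-binding fold with the Hcn family, 13 were measured and none was called at B above 0, while limma's unadjusted p was under 0.05 for 1 that was higher and 3 that were lower. Cnga3, a cone photoreceptor channel subunit, had the lowest difference of these, at -0.26 (standard error 0.079, limma adjusted p = 0.257). Kcnh5 and Kcnh3, potassium channel genes, had log2 differences of -0.21 (standard error 0.071) and -0.17 (standard error 0.060), and Cnga4, an olfactory channel subunit, had one of 0.21 (standard error 0.084). The probe sets of Cnga3, Kcnh5 and Cnga4 were dim, with group means of 4.89 to 6.06 against a median of 6.91 over all probe sets. The list had a median log2 difference of -0.053, beside -0.018 over all 19938 genes. Of 10 genes of proteins that bind or modify Hcn channels none was called, and 3 were higher and none lower at that p. Cav3, the muscle caveolin that binds Hcn4, had log2 values of 9.96, 9.92 and 9.99 in the TG mice, against 9.67, 9.61 and 9.82 in the WT mice. All TG values of Cav3 were above all WT values, by a mean of 0.26 (standard error 0.069, limma adjusted p = 0.238). Nedd4l, a ubiquitin ligase gene, had the smallest p of the list, with a log2 difference of 0.20 (standard error 0.051, limma adjusted p = 0.234), and Vapb, a membrane protein gene of the endoplasmic reticulum, had one of 0.13 (standard error 0.053). The channel subunit gene Kcne2 had a log2 difference of -0.15 (standard error 0.063), with overlapping groups, and Pex5l, the brain partner TRIP8b, had one of 0.017 (standard error 0.093). The probe sets of Kcne2 and Pex5l were dim as well, with group means of 6.30 to 6.46.

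On the cAMP side, which affects how readily Hcn2 and Hcn4 channels open, 16 of 20 listed genes were measured and none was called. With limma's unadjusted p under 0.05, 4 were higher and 2 lower. Popdc3, of a family of cAMP-binding membrane proteins, had a log2 difference of 0.22 (standard error 0.058, limma adjusted p = 0.236). Pde2a and Pde3a, which break down cAMP, had differences of 0.18 (standard error 0.053) and 0.20 (standard error 0.072). The adenylyl cyclase gene Adcy8 had one of -0.19 (standard error 0.052), from a dim probe set (mean 4.91 in TG and 5.09 in WT). None of these passed the adjusted p. The list had a median of 0.059.

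Among listed transcription factors of the pacemaker and working myocardium, 10 of 11 were measured and none was called, while 1 was higher and none lower by that same unadjusted p from limma. That gene was Tbx3, which represses working myocardial genes in the node and conduction system. Its log2 values were 8.37, 8.61 and 8.62 in the TG mice, against 8.33, 8.19 and 8.16 in the WT mice, with a difference of 0.31 (standard error 0.089, limma adjusted p = 0.252). Tbx5, a factor of conduction system and chamber muscle, had a log2 difference of -0.14 (standard error 0.059). The node factors Shox2 and Isl1 had log2 differences of -0.028 (standard error 0.071) and -0.020 (standard error 0.057). Their probe sets were dim, with group means of 5.58 to 6.02 against a median of 6.91 over all probe sets. These small differences therefore do not show a lack of change. Rest, a repressor that keeps fetal and neuronal genes, Hcn2 and Hcn4 among them, low in the ventricle, had a difference of 0.019 (standard error 0.075). The differences of the list ran from -0.14 to 0.31, with a median of -0.041.

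Of the other channels and junctions of pacemaker tissue, 12 of 13 were measured and none was called, while 1 was higher and 3 lower by that unadjusted p from limma. Gjd3, a connexin of the conduction system, had a log2 difference of -0.21 (standard error 0.059), and Cacna1g, a T-type calcium channel, had one of -0.19 (standard error 0.054). Kcnj3 and Kcnj5, which form the acetylcholine-gated potassium channel, had differences of opposite sign, at -0.19 (standard error 0.067) and 0.18 (standard error 0.055). These 4 had the smallest unadjusted p from limma in the list, their groups did not overlap, and none passed the adjusted p. Among the 12 measured genes, groups did not overlap for 2 with TG above WT and 4 with TG below WT. The shares of all 19938 genes were 12.2% and 13.6%. The median of the list was -0.033, and that of Hcn2, Hcn3 and Hcn4 was -0.067, the value of Hcn3.

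**Figure D5:**
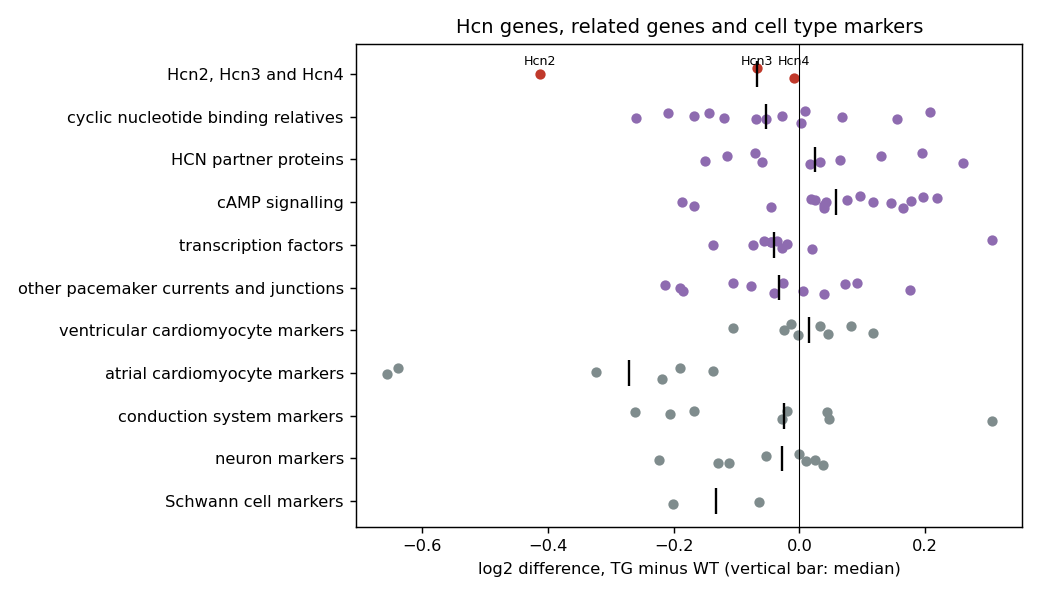
Log2 difference of TG minus WT (horizontal axis) of Hcn2, Hcn3 and Hcn4 (red), of genes in 5 lists related to the channels (purple) and of markers of 5 cell types (grey), with 1 point per gene and the median as a vertical bar. Hcn2, at -0.41, is below every gene of the related lists, and Myl7 and Myl4 among the atrial markers are lower still.

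Markers of other cells that hold Hcn transcripts were set beside the Hcn2 difference. All 6 atrial muscle markers were lower in TG on average. For 5 of them limma's unadjusted p was under 0.05 and the groups did not overlap. Of all 19938 genes 8.76% were lower at that p, and 13.6% had TG below WT without overlap. Myl7 and Myl4, the atrial myosin light chains, were called lower at B above 0, as were 0.211% of all genes. Their log2 differences were -0.64 (standard error 0.097) and -0.66 (standard error 0.10). The probe sets of Sln and Bmp10 were dim, with group means of 5.20 to 6.49 against a median of 6.91 over all probe sets. The summed level of the 6 on the linear scale was 3358 to 3552 in TG and 4036 to 4872 in WT. Sums of this kind, here and below, depend most on the brightest probe sets and do not give the amount of a cell type. Nppa was the brightest of the 6 (mean log2 value 11.05 in TG and 11.27 in WT). Averaged as log2 values, the 6 were at 8.02 to 8.06 in TG and 8.30 to 8.48 in WT. Kcnj3 is among the 6 as well as among the channels above. The 8 markers of the conduction system had summed levels of 1677 to 1711 in TG and 1676 to 1774 in WT. At that p 1 was higher, Tbx3 (0.31), and 3 were lower, Cntn2 (-0.26), Irx3 (-0.21) and Gja5 (-0.17). Tbx3, Shox2 and Isl1 are also among the transcription factors above. The probe sets of Shox2, Isl1 and Kcne1 were dim, with group means of 5.58 to 6.26. Of 8 neuron markers 1 was lower at that p, Chat (mean 5.20 in TG and 5.42 in WT). Of the 8, only Uchl1 (mean 7.67 in TG and 7.80 in WT) was above the median of 6.91 over all probe sets. The other neuron markers, Chat among them, had dim probe sets. The summed levels of the 8 were 609 to 675 in TG and 666 to 686 in WT. Of the Schwann cell markers Sox10 and Mbp, the 2 of 4 that were measured, Sox10 was lower at that p. The probe set of Mbp was dim (mean 6.60 in TG and 6.66 in WT). The summed levels of Sox10 and Mbp were 244 to 273 in TG and 284 to 297 in WT. The part of these cells in the Hcn2 difference was not tested.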

How the data were processed

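Total RNA of cardiac ventricles of 3 TG and 3 WT mice was hybridised by the authors to 1 array per mouse. A log2 value for each probe set and array was deposited, made with RMA according to the submitters' processing notes. Which RMA version was run is not stated in those notes. All 35556 probe sets and 6 columns were used as deposited, and 0 columns were left out. Groups came from the sample titles, and the line and promoter from the paper. Probe sets were named through the platform annotation (21789 with 1 gene symbol, 1621 with several and not named, 12146 unnamed here). RefSeq tables of GRCm38.p6 gave gene order, microRNA and start region sequences.

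TG and WT were compared with limma 3.58.1 under R 4.3.3 (moderated by eBayes with no trend, assumed share of changed probe sets 0.01) over all probe sets, which was tested on simulated data. Both cut-offs, B above 0 and an adjusted p under 0.05, follow the paper, but the set of probe sets tested does not. The paper counted fewer transcripts as interrogated and called more of them at each cut-off. Here 130 of 35556 probe sets were called at B above 0, and 2 had an adjusted p under 0.05. The cause of this gap was not tested. Hcn2 was called when only listed probe sets were tested (B of 0.69), and not over all probe sets (B of -0.30). Single values were tested by exact permutation of the 6 mice. The members and gene lists were chosen with earlier results of these data known. Genes named were the members, Mir499 and Myh7b, the 5 genes closest to each member, the nearest measured neighbours, Pex5l, Kcne2, Cav3, Shox2, Isl1, Tbx3 and Rest, and, from each list, genes among the 4 with the smallest p, not all of which are given. Sp1, a listed factor, was named in addition because its motif was searched, with its values seen. Of the listed genes and markers, 11 were not found with 1 gene symbol. As alternatives, each mouse was left out in turn, dim or unlisted probe sets were dropped, arrays were centred on the median, normalized again by quantiles or weighted, and the fit was made with an intensity trend, with robust moderation, with the replicate number as a block or with a share of 0.05. Precision is limited by the number of arrays.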

Additional observations from a re-analysis of the deposited data

How the results depend on the processing

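The log2 difference of Hcn2 was negative in all 15 alternatives, from -0.45 to -0.36, with an adjusted p of 0.0667 to 0.401 from limma. Its value of -0.41 was called, with B above 0, when only probe sets at or above the median level were tested (B of 0.51), when only listed probe sets were tested (B of 0.69), with an intensity trend (B of 0.61) and with an assumed share of 0.05 (B of 1.09), and B was -1.48 to -0.97 with 1 mouse left out. Hcn3 and Hcn4 were called in no alternative. The difference of Hcn4 was positive after centring on the median (0.043) and after a second quantile normalization (0.012), and with 1 mouse left out it was -0.11 to 0.048. The difference of Hcn3 was -0.016 after centring and -0.016 after the second quantile normalization, and with 1 mouse left out it was -0.14 to 0.0068. Hcn3 was removed by the filter on dim probe sets. Centring shifts the differences of all genes by the same amount, since array medians were 6.89 to 6.91 in TG and 6.93 to 6.95 in WT. It brought Hcn2 to -0.36, with a B of -1.09. The cause of the turns in the other settings was not tested. Of all probe sets 130 were called, against 287 with an intensity trend and 714 with an assumed share of 0.05. Of the 17778 probe sets at or above the median level 191 were called, and of the 23410 listed probe sets 156. With 1 mouse left out 29 to 112 were called, with 56 and 37 without WT mice 1 and 2 and 29 and 51 without TG mice 2 and 3. Same-numbered mice did not deviate together (r of 0.024, -0.00044 and 0.057), so the numbers were not taken as pairs. With the replicate number as a block 69 were called, and no call of an Hcn gene changed (Hcn2 at -0.41, adjusted p = 0.318 from limma). Averaging the probe sets of a gene gave no other value, since each Hcn gene had 1.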
